A study of Mus musculus with 3 samples.

Results

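The proliferating tendon-like cells of the D10 culture are the 1353 cells that carry cluster code 2 in the deposited count table, 17.3% of the 7821 cells of that library. The code was taken as deposited, and no cell was added or removed. In the study, the culture cells were assigned by projection on clusters of the embryonic tail, so that all genes described here belong to the cells that were clustered. Every difference between clusters is therefore a description of these cells, given without a test. The comparison group is the 2964 cells of code 1, which express tendon genes and are called tendon-like cells here. Further clusters are named here from their genes. The cells of code 4 had summed sclerotome and cartilage genes at 8723 UMIs per 1000000 (CPM) beside tendon matrix genes at 16313 CPM and are called fibrocartilage-like. The cells of code 3 had summed pluripotency genes at 6947 CPM and are called pluripotent-like. The study also describes a fibrocartilage cluster, but the cell number it lists for that cluster is the one that code 3 has in the deposited table.

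The culture was 1 library of the whole, unsorted monolayer, made from an mESC line that carries the ScxGFP reporter and depleted of dead cells. Embryoid bodies and paraxial mesoderm (PM) were formed with 500 nM LDN-193189, which blocks BMP signaling, from D0 to D6, and with 5 μM CHIR, a WNT agonist, from D2 to D6. From D6 to D10 the cells received 10 ng/mL TGFβ1, 100 nM SAG, a hedgehog agonist, and 10 ng/mL FGF2. The series also holds 1 library of D6 PM and 1 library of the E14.5 mouse tail, and the tail is set beside the culture once.

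A dividing cell copies its genome in S phase, prepares in G2 and separates the copies in mitosis (M phase). E2F factors are known to switch on the genes of DNA replication before and during S phase, and the MYB-MuvB complex with FOXM1 those of the spindle and of mitosis later. *Scx* encodes the transcription factor that marks tendon progenitors and tendon cells, and tendon matrix is mostly fibrillar collagen with small proteoglycans. Cells of the sclerotome and the tendon lineage next to it arise together in the somite, and the sclerotome forms cartilage under *Sox9* and *Pax1*.

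The 1353 cells held 10708985 UMIs (unique molecular identifiers, each marking 1 captured transcript) with a median of 7324 UMIs and 3202 genes per cell. The tendon-like cells had a median of 4918.5 UMIs and 2438 genes, and the main values were also computed with each cell thinned to 3000 UMIs. At that depth 260 genes were at least 2-fold higher and 12 lower than in the tendon-like cells, in place of 340 and 15, the *Top2a* ratio was 12.6 in place of 9.89 and that of *Cdkn2a* 0.350 in place of 0.353. For values with no thinned counterpart the part of this gap was not tested. Scrublet called 13 of the proliferating cells (0.961%) as doublets against 116 of all culture cells (1.48%), and these were kept. No barcode of the proliferating cells recurred in the tail library, and 4 recurred in the D6 PM library. Levels are in CPM, the UMIs of a gene summed over a group of cells, divided by all UMIs of these cells and scaled to 1000000. Intervals in parentheses are exact 95% intervals and cover counting error only, as cells of 1 library are not replicates.

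The label was checked against its markers. *Top2a*, the topoisomerase that untangles replicated DNA, was at 1409 CPM (1386 to 1431) in the proliferating cells and 142 CPM in the tendon-like cells. *Scx* was at 2699 CPM (2668 to 2730) and 2410 CPM, a ratio of 1.12 (1.10 to 1.14). To see whether both occur in the same cells, a random 3000 UMIs were kept of each cell, leaving out 12 proliferating and 369 tendon-like cells. At that depth 92.3% of the proliferating cells had a *Scx* UMI, 96.8% had a *Top2a* UMI and 89.6% (87.8 to 91.1) had both. The product of the single shares was 89.4%. With single shares this high most cells must hold both, so that the joint share adds little to them. Without thinning, 96.9% of the proliferating cells had both. At 3000 UMIs both were found in 19.4% of the tendon-like and 21.1% of the fibrocartilage-like cells. *Scx* was found in 10.3% of pluripotent-like cells thinned in the same way, which had a median of 10369.5 UMIs before thinning, and *Scx* with *Top2a* in 7.77%. At least 1 of *Top2a*, *Mki67* and *Cenpf* was found in 99.5% of the proliferating cells, and all of them in 64.9%. In the tendon-like cells these shares were 35.5% and 6.36%. They were 87.0% and 33.4% in the pluripotent-like cells and 89.8% and 31.8% in the cells of code 5. These markers are thus shared with other clusters of the culture.

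Other cell types were looked for with marker lists of pluripotent, epithelial, muscle, endothelial, blood and neural cells. None of their genes had a UMI in more than 10% of the proliferating cells. The summed level of the lists ranged from 5.32 CPM for muscle to 52.2 CPM for pluripotent cells, against 10.8 and 47.1 CPM in the tendon-like cells and 6947 CPM of pluripotency genes in the pluripotent-like cells. *Krt5* and *Krt14* of epithelium, *Myog* and *Myf5* of muscle, *Tek* of endothelium, *Ptprc* of blood and *Dcx* of neurons had 0 UMIs.

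Compared with the tendon-like cells, 340 of 8077 genes were at least 2-fold higher in the proliferating cells (4.21%) and 15 were at least 2-fold lower (0.186%), over genes detected in 10% or more of the cells of one group or the other. Of the tested genes 1070 passed this filter through the proliferating cells alone, and these hold 189 of the 340 higher genes. When detection in 25% was required, 1 gene was lower, and without a filter 2513 genes were higher and 3553 lower. Of the 340 higher genes, 183 (53.8%) belong to 16 lists of cell cycle genes that together hold 294 genes past this filter. Of these 294 genes 200 were also detected in 10% or more of the tendon-like cells, and 100 of the 200 were higher. The median log2 ratio over all genes was -0.04. The cycle genes did not stand equally far above the tendon-like cells. Most genes of mitosis were among the higher ones, and few genes that load replication origins.

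**Figure D1:**
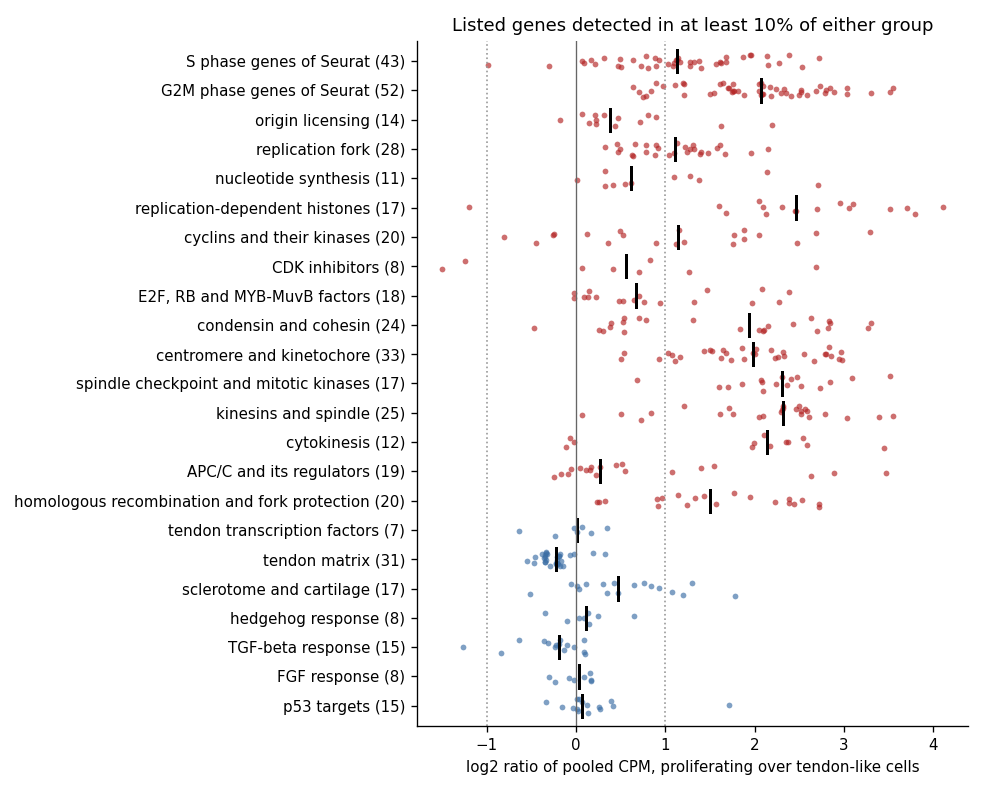
Log2 ratio of the pooled level in the proliferating cells over the tendon-like cells (x axis) for the genes of each list (rows, with the number of genes past the filter), 1 point per gene, cell cycle lists in red and other lists in blue, a black bar at the median of each list and dotted lines at 2-fold. Medians were 2.32 for kinesins, 0.38 for origin licensing and -0.22 for tendon matrix genes.

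Origin licensing is the loading of the MCM helicase on DNA before S phase. Only 2 of 14 licensing genes were at least 2-fold higher, *Gmnn* and *Mcm10*, of which *Mcm10* passed the filter through the proliferating cells alone. *Mcm2*, a subunit of the helicase, was at 53.1 CPM in the proliferating cells and 42.8 CPM in the tendon-like cells, a ratio of 1.24 (1.11 to 1.39). Over the 6 subunits the ratio ran from 1.05 (0.982 to 1.12) for *Mcm6* to 1.85 (1.69 to 2.03) for *Mcm7*, and it was 1.39 (1.15 to 1.67) for *Cdc6*, which loads the helicase. *Gmnn*, which encodes geminin, the inhibitor of a new round of licensing, was at 180 CPM against 58.3 CPM, a ratio of 3.09 (2.86 to 3.34).

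At the replication fork, 16 of 28 genes were at least 2-fold higher, 9 of which passed the filter through the proliferating cells alone, and of the 18 genes also detected in enough tendon-like cells 7 were higher. *Cdc45*, which activates the helicase, had a ratio of 4.42 (3.79 to 5.17), and *Clspn*, which relays the checkpoint signal of stalled forks, 3.90 (3.57 to 4.26). Of the 11 genes of nucleotide synthesis, 5 were higher, of which *Tk1* passed the filter through the proliferating cells alone. Of the 10 also detected in enough tendon-like cells 4 were higher. *Rrm2*, a subunit of ribonucleotide reductase, was at 291 CPM against 66.1 CPM, and *Tk1*, thymidine kinase, at 116 CPM against 17.8 CPM. Homologous recombination, the repair of breaks from the sister copy, had 14 of 20 genes higher, but 12 of these passed the filter through the proliferating cells alone, and of the 6 genes also detected in enough tendon-like cells 2 were higher. *Brca1* had a ratio of 4.70 (4.06 to 5.46).

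Histone genes that are expressed during DNA replication summed over all 58 in the file to 4719 CPM against 616 CPM, a ratio of 7.66 (7.5 to 7.83). Only 17 of the 58 passed the filter, 12 of them through the proliferating cells alone, and of the 5 found in enough tendon-like cells 4 were at least 2-fold higher. *Hist1h1b*, a linker histone, was at 2884 CPM (2852 to 2916) in the proliferating cells and 208 CPM in the tendon-like cells, a ratio of 13.9 (13.4 to 14.4). *Hist1h2ab* was at 51.9 CPM against 3.01 CPM, and *Hist1h2ae* at 260 CPM against 19.8 CPM. *Hist1h2bc*, by contrast, was at 20.2 CPM against 46.4 CPM, a ratio of 0.435 (0.372 to 0.506). Most mRNAs of these genes lack a poly(A) tail, on which 3′ libraries depend, and near-identical copies share reads, which were ignored when they mapped to several places. Levels of single histone genes are therefore uncertain.

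Among mitotic genes, 30 of 33 genes of the centromere and kinetochore past the filter, 16 of 17 of the spindle checkpoint and mitotic kinases, 21 of 25 kinesins and spindle genes and 9 of 12 of cytokinesis were at least 2-fold higher, with none lower. Of those also detected in 10% or more of the tendon-like cells, 15 of 16, 12 of 12, 15 of 19 and 7 of 10 were higher. *Aurkb*, a kinase that corrects attachments of chromosomes, was at 270.9 CPM against 23.6 CPM, a ratio of 11.5 (10.3 to 12.8). *Nusap1*, which binds spindle microtubules, had a ratio of 11.7 (10.6 to 12.9), *Prc1*, which bundles the central spindle, 10.9 (10.2 to 11.7), and *Kif18b*, a kinesin of astral microtubules, 10.5 (8.17 to 13.6). *Cenpa*, the histone of the centromere, stood closer to the tendon-like level, at 508 CPM against 236 CPM, a ratio of 2.15 (2.06 to 2.24).

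Condensin and cohesin genes were higher in 14 of 24 cases, 3 of which passed the filter through the proliferating cells alone. Of the 21 also detected in enough tendon-like cells 11 were higher. *Esco2*, which acetylates cohesin during replication and is among the 3, had a ratio of 9.67 (8.50 to 11.0). The anaphase promoting complex (APC/C) is the ligase that ends mitosis. None of its 12 core subunits was at least 2-fold higher, with ratios from 0.888 to 1.46, against 6 of 7 regulators and substrates. Of these 6, 2 passed the filter through the proliferating cells alone. The 6 include its E2 enzyme *Ube2c* at 968 CPM against 131 CPM and its inhibitor *Fbxo5* with a ratio of 11.1 (9.78 to 12.5). *Pttg1*, which encodes securin, the target whose removal starts anaphase, was at 41.0 CPM against 48.8 CPM, a ratio of 0.841 (0.747 to 0.945).

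*Ccna2*, the cyclin of S and G2, had a ratio of 4.12 (3.85 to 4.41), *Ccnb1*, the cyclin of mitotic entry, 5.54 (5.09 to 6.04), *Ccnb2* 1.85 (1.72 to 2.0) and *Cdk1*, their kinase, 6.42 (6.05 to 6.82). *Ccne1*, the cyclin of S phase entry, had 1.44 (1.32 to 1.58) and *Ccne2* 2.16 (1.88 to 2.49). The D cyclins, which respond to growth signals in G1, were lower in the proliferating cells, with ratios of 0.569 (0.519 to 0.624) for *Ccnd1*, 0.732 (0.707 to 0.757) for *Ccnd2* and 0.834 (0.792 to 0.878) for *Ccnd3*. Of 18 genes of E2F, RB and MYB-MuvB factors, which act on cycle promoters, 6 were at least 2-fold higher, with a list median of 0.67 on the log2 scale, and all 6 passed the filter through the proliferating cells alone. *Foxm1* had a ratio of 5.23 (4.35 to 6.31), *Mybl2* 4.25 (3.38 to 5.37), and the repressors *E2f7* and *E2f8* 3.91 (3.26 to 4.70) and 4.82 (4.13 to 5.63). *E2f1* had 1.70 (1.46 to 1.98), *E2f3* 1.06 (0.926 to 1.22) and *E2f4* 0.982 (0.860 to 1.12).

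The genes of the CDK inhibitors, which brake the cycle, went both ways. *Cdkn2a* and *Cdkn2b*, which encode INK4 inhibitors of the D cyclin kinases, were lower in the proliferating cells. *Cdkn2a* was at 36.7 CPM (33.2 to 40.5) against 104 CPM, a ratio of 0.353 (0.316 to 0.394), and *Cdkn2b* at 48.5 CPM against 115 CPM, a ratio of 0.423 (0.383 to 0.467). Their relatives *Cdkn2c* and *Cdkn2d* were higher, with ratios of 6.42 (4.98 to 8.38) and 2.40 (2.23 to 2.59). Of this pair *Cdkn2c* passed the filter through the proliferating cells alone. *Cdkn1c* was at 1518 CPM against 1449 CPM, and was found in 94.5% of the proliferating cells. *Cdkn1a*, the p53 target p21, was at 695 CPM against 524 CPM, a ratio of 1.33 (1.29 to 1.37). As a list, p53 targets were near the tendon-like level, with a list median of 0.06 on the log2 scale. Of 15 genes 1 was at least 2-fold higher, a share near the 4.21% of all genes. It was *Gtse1*, which also belongs to the G2M list and passed the filter through the proliferating cells alone. Thus the cluster with the highest sums of G2M genes and of histones in the culture also held transcripts of several inhibitors at or above the level of the tendon-like cells.

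Outside the lists, the largest ratio was that of *Neil3*, a glycosylase that removes oxidized bases, at 85.3 CPM against 5.67 CPM. The 15 highest also include *Pbk*, a mitotic kinase, *Melk* and *Mastl*, further kinases, and *Pclaf*, a partner of PCNA, at 923 CPM against 181 CPM. A pair of related repressors that bind MAX, the partner of MYC, went opposite ways. *Mxd3* was at 106 CPM in the proliferating cells and 14.4 CPM in the tendon-like cells, a ratio of 7.39, and *Mxd4* at 31.2 CPM and 83.7 CPM, a ratio of 0.373. Among further lower genes of at least 50 CPM, *S100a6* had a ratio of 0.436 and *Sat1* of 0.494. The 15 genes that were at least 2-fold lower also include *Acta2*, smooth muscle actin, at 167 CPM against 400 CPM.

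The tendon genes themselves were close to those of the tendon-like cells. The median of the tendon matrix list was -0.22 on the log2 scale. Of its 31 genes none was 2-fold apart, which alone says little where 4.21% of all genes were higher and 0.186% lower. *Col1a1* was at 2363 CPM against 2741 CPM, a ratio of 0.862 (0.849 to 0.876), *Postn*, a matricellular protein, had a ratio of 0.794 (0.780 to 0.807), and the lowest ratio was that of *Igfbp5*, 0.681 (0.665 to 0.697). *Fmod*, a small proteoglycan, was highest at 1.25 (1.19 to 1.30). The tendon transcription factor *Mkx* was at 31.3 CPM against 48.9 CPM, a ratio of 0.639 (0.561 to 0.727). For targets of the 3 pathways that were stimulated from D6, list medians were also near the tendon-like level, but the summed TGFβ response was lower. None of 8 hedgehog and 8 FGF response genes was 2-fold apart, which says little for the same reason. *Ptch1*, the hedgehog receptor and target, had a ratio of 1.10 (1.04 to 1.15). Of 15 TGFβ response genes, only *Acta2* was 2-fold apart, though not as a mean of CPM over cells (0.510), and the list median was -0.19. The whole TGFβ response list summed to 1799 CPM against 2358 CPM, a ratio of 0.763 (0.750 to 0.776).

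The pluripotent-like cells also held many transcripts of the cell cycle. Here 1957 of 9759 genes were at least 2-fold higher in the proliferating cells (20.1%) and 2070 at least 2-fold lower (21.2%). Licensing genes were lower in 10 of 16 cases with none higher, with a list median of -1.31, and *Mcm2* was at 53.1 CPM against 182 CPM. *Mybl2* was at 26.6 CPM against 261 CPM. G2M genes of Seurat were at least 2-fold higher in 10 of 52 cases, a share near that of all genes, and none was 2-fold lower. Of 8 genes of CDK inhibitors 5 were higher, and their summed level was 2706 CPM against 515 CPM. *Ccnd2* was at 445 CPM against 36.8 CPM.

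**Figure D2:**
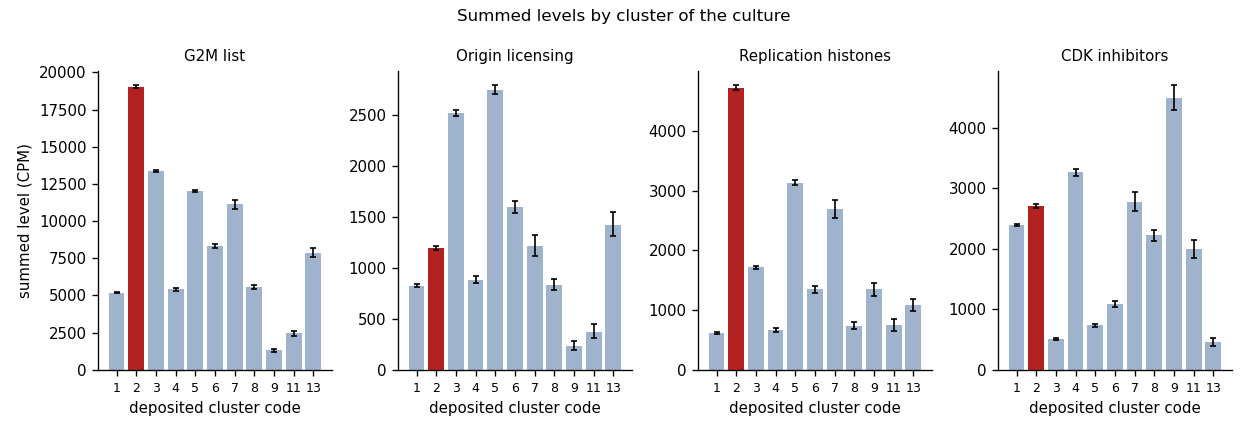
Summed level in CPM of 4 gene lists (y axes, from 0) in the clusters of the culture with more than 2 cells (x axis, deposited cluster codes), with exact 95% Poisson intervals and the proliferating cells (code 2) in red. The red bar was the tallest for the G2M list at 19037 CPM and the histones at 4719 CPM, but not for origin licensing at 1197 CPM or CDK inhibitors at 2706 CPM.

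Phases were called from the S and G2M lists of Seurat. Of the proliferating cells, 1158 were called G2M, 195 S and 0 G1, which is 100% in S or G2M (99.7 to 100), against 37.1% (35.3 to 38.8) of the tendon-like cells. These are ranges of a score that reads free RNA too, and no cycling is read from them alone. The S and G2M scores of 118 proliferating cells were within 0.1 of each other, and 3 proliferating and 665 tendon-like cells were within 0.1 of the G1 border. The single cells overlapped between clusters. At 3000 UMIs per cell, the G2M list gave a median of 54 UMIs per proliferating cell (interquartile range 36 to 76) and 9 per tendon-like cell (5 to 17). The 5th percentile of the proliferating cells, 22 UMIs, was reached by 520 of 2595 tendon-like cells (20.0%, 18.5 to 21.6) and by 128 of 641 fibrocartilage-like cells (20.0%, 16.9 to 23.3). Their median was reached by 5.09% and 7.96% of these cells.

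**Figure D3:**
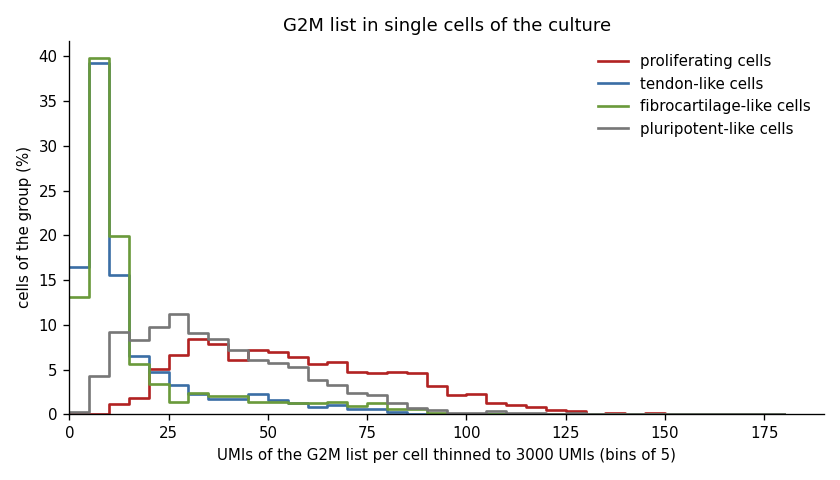
Share of the cells of a group (y axis, percent) by the UMIs of the G2M list in a cell thinned to 3000 UMIs (x axis, bins of 5 UMIs) for proliferating, tendon-like, fibrocartilage-like and pluripotent-like cells. The curves of tendon-like and fibrocartilage-like cells peak below 10 UMIs with a tail under the broad curve of the proliferating cells, whose median is 54.

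To see how the proliferating cells vary among themselves, they were ordered by the S score minus the G2M score and cut into 4 equal bins of 338 or 339 cells, the first with the highest difference, a split chosen after the data were seen. The S and G2M lists made this order, so that their course is given by construction. All 195 cells called S fell into the first bin. Median UMIs per cell were 6674, 7102, 7968 and 7606 from the first to the last bin, and their part was examined only for the histones and the tendon matrix. With bins made from scores at 3000 UMIs per cell, the histone level of the first bin was 2.85 times that of the last, in place of 3.31, and the tendon matrix ratio of last to first 0.970 in place of 0.985. For the other courses the part of depth was not tested. Of 8360 genes, 245 were at least 2-fold higher in the last bin than in the first (2.93%) and 289 at least 2-fold lower (3.46%).

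Genes outside the ordering lists also differed between the bins. The 10 licensing genes outside the lists summed to 983, 700.0, 531 and 378 CPM over the bins, against 449.7 CPM in the tendon-like cells. Their last bin had a ratio of 0.842 (0.787 to 0.899) to the tendon-like level. Histones were at 6359, 6659, 4204 and 1918 CPM, against 616 CPM, so that they were highest in the first 2 bins and still 3.11 times (3.01 to 3.22) the tendon-like level in the last. *Ccne1* was at 177, 106, 58.1 and 22.0 CPM, and *Ccne2*, an ordering gene, at 119, 52.2, 14.4 and 4.11 CPM. In the average over all 1353 cells given above, a high first bin and a low last bin of these cyclins are mixed.

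*Ccnb1* took the opposite course, with 48.9, 130, 246 and 467 CPM. *Plk1*, a kinase of mitotic entry, was at 71.9, 134, 237 and 358 CPM. The 13 kinesins and spindle genes outside the ordering lists summed to 1373, 1812, 2141 and 2731 CPM, and 9 of them were at least 2-fold higher in the last bin than in the first. *Cenpa*, an ordering gene, was at 78.0 CPM in the first bin, below the 236 CPM of the tendon-like cells, and at 1067 CPM in the last. Recombination genes went with replication, with 7 of 16 outside the lists at least 2-fold higher in the first bin. At 3000 UMIs per cell *Ccne1* and *Ccnb1* were found together in 6.41% of the cells, where the product of the single shares was 8.59%.

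The inhibitors differed in their course. *Cdkn1a* was highest in the second bin, with 593, 895, 723 and 563 CPM, and so was *Scx*, with 2598, 3056, 2662 and 2486 CPM. *Cdkn1b*, the inhibitor p27, was at 107, 141, 147 and 263 CPM, a ratio of last to first bin of 2.45 (2.13 to 2.84). *Ccnd1* was at 94.9, 58.8, 56.4 and 30.6 CPM, against 104 CPM in the tendon-like cells. Tendon matrix genes were level, with sums of 24340, 24264, 24081 and 23969 CPM against 28590 CPM in the tendon-like cells, a ratio of last to first of 0.985 (0.974 to 0.996). None of the 31 was 2-fold apart between the first and last bin, which alone says little where 2.93% of all genes were higher and 3.46% lower. *Sox9* was at 105, 144, 149 and 198 CPM.

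**Figure D4:**
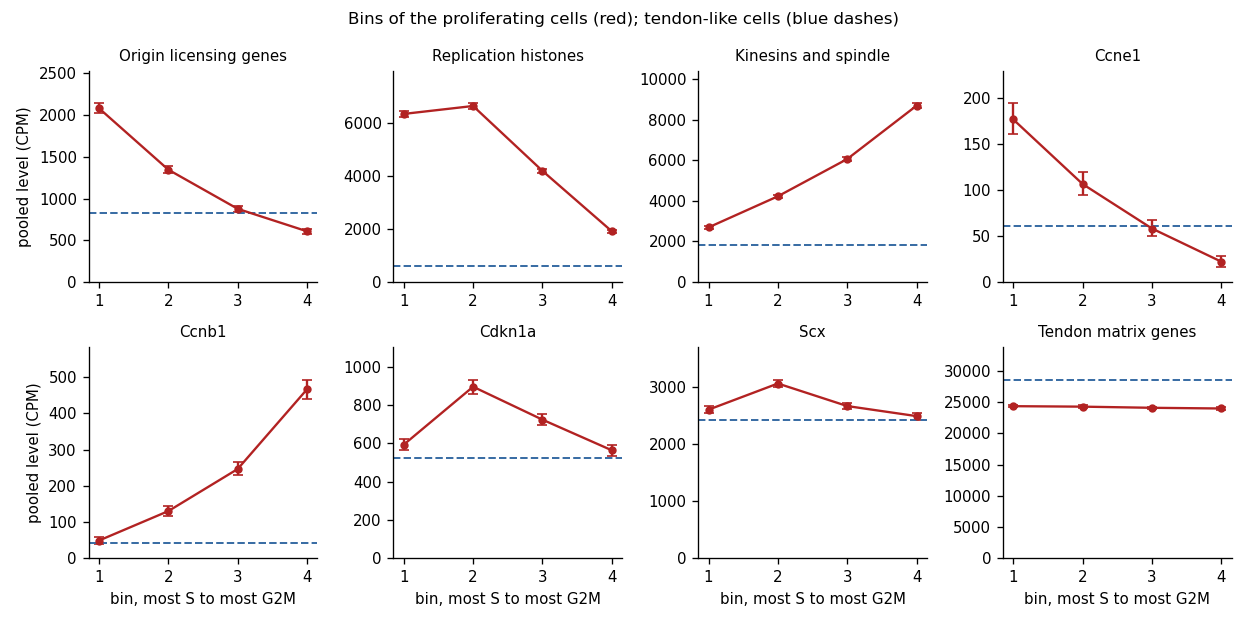
Pooled level in CPM (y axes, from 0) of 3 cell cycle lists (whole lists, some of whose licensing and kinesin genes made the order), 4 genes and the tendon matrix list in the bins of the proliferating cells (x axis, from the highest to the lowest S minus G2M score), with exact 95% Poisson intervals in red and the level of the tendon-like cells as a blue dashed line. Licensing, histone and *Ccne1* levels end low and kinesin and *Ccnb1* levels end high, while the tendon matrix sum stays between 23969 and 24340 CPM.

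Since many of these genes are known targets of E2F or MYB-MuvB, their promoters were searched on both strands for 3 kinds of letters, in RefSeq windows of GRCm38.p6 from 250 bases before to 50 bases after each annotated start. A gene was counted when any of its windows held a match. TTTGAA, the cell cycle homology region (CHR) that MYB-MuvB is known to bind, was in 20.2% of all 27025 genes and in 33 of 46 matched G2M genes (71.7%). The E2F words TTTCCCGC, TTTCGCGC, TTTGCCGC and TTTGGCGC were in 2.60% of all genes, in 12 of 31 matched S genes (38.7%) and in 3 of 46 G2M genes. Among the replication lists they were in 8 of 14 licensing, 7 of 22 fork and 0 of 11 nucleotide synthesis genes. CCAAT, the letters that NF-Y is known to bind, was in 41.1% of all genes, in 35 of 46 G2M genes (76.1%) and in 22 of 31 S genes (71.0%). The CHR and E2F words cannot share a base, while CCAAT can share one with either. Of the listed genes at least 2-fold higher than in the tendon-like cells, 84 were at least 2-fold higher in the last bin, and 48 of the 71 of these that matched held the CHR (67.6%), 6 the E2F letters and 56 CCAAT (78.9%). Of the 50 higher in the first bin, 29 matched, of which 6 held the CHR (20.7%), 11 the E2F letters (37.9%) and 17 CCAAT (58.6%). Since the S and G2M lists made the bins, the count was repeated without their genes. The CHR was then in 25 of 38 matched genes higher in the last bin (65.8%) and in 3 of 14 higher in the first, and the E2F letters in 4 of 38 and 6 of 14. Tendon matrix genes held the CHR in 5 of 21 and the E2F letters in 0 of 21 cases. Promoters of the replication-dependent histones were not searched, since none of these genes was matched by symbol to a window. A match is a match of letters only.

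The promoters below show where the CHR and E2F letters lie, for 3 genes of either kind. These genes were taken by the ratio between the bins, among those with at least 100 UMIs in the first and last bin together. Only genes with a match within the 100 bases printed were taken, and some promoters were left out of the choice. Genes with a larger ratio can therefore be missing here. Each line gives the 100 bases before the start on the strand of the gene, from 5′ to 3′, with the CHR or E2F match in capitals and any CCAAT left in lower case. The CHR genes encode the E2 enzyme of the APC/C (*Ube2c*, chr2:164769829-164769928, + strand), its activator (*Cdc20*, chr4:118437344-118437443, - strand) and cyclin F (*Ccnf*, chr17:24251410-24251509, - strand).
Ube2c: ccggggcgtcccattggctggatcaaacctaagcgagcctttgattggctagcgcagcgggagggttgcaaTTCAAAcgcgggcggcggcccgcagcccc
Cdc20: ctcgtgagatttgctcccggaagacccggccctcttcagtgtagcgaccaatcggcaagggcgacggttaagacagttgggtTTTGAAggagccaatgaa
Ccnf: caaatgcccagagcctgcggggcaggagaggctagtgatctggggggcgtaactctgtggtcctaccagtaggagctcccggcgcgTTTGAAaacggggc
The match begins 29 bases before the start in *Ube2c*, where it lies on the other strand, 18 in *Cdc20* and 14 in *Ccnf*. *Ube2c* was at 187, 499, 1088 and 2000 CPM over the bins and *Cdc20* at 51.3, 104, 282 and 504 CPM.

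The E2F genes encode an adaptor of a ubiquitin ligase of replication (*Dtl*, chr1:191575545-191575644, - strand), a subunit of the GINS complex of the fork (*Gins3*, chr8:95633459-95633558, + strand) and the RB relative p107 (*Rbl1*, chr2:157204535-157204634, - strand).
Dtl: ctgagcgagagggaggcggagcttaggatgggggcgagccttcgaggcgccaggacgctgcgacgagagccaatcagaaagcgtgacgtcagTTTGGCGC
Gins3: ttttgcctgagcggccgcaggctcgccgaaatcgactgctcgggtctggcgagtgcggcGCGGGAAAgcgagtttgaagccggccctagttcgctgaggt
Rbl1: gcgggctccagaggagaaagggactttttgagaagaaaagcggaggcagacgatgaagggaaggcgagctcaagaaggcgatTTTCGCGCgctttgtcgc
The match begins 8 bases before the start in *Dtl*, 41 in *Gins3*, where it lies on the other strand, and 18 in *Rbl1*. The stretch of *Gins3* also holds a CHR word, left in lower case, 28 bases before the start. *Ube2c*, *Cdc20* and *Dtl* belong to the lists that made the order, and *Ccnf*, *Gins3* and *Rbl1* do not. *Dtl* was at 181, 105, 62.8 and 36.2 CPM over the bins.

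Genes of the sclerotome and cartilage were the one list of lineage genes with members at least 2-fold above the tendon-like level. Of 17 genes past the filter 4 were at least 2-fold higher, all of them of cartilage matrix, against 4.21% of all genes. At least *Acan* among them passed the filter through the proliferating cells alone, and for the others this was not counted. The list median was 0.47 on the log2 scale. *Acan*, the large proteoglycan of cartilage, was at 38.8 CPM against 11.3 CPM, a ratio of 3.44 (2.89 to 4.11), and *Col2a1*, its main collagen, at 500 CPM against 218 CPM, a ratio of 2.29 (2.19 to 2.39). The ratios of *Col9a1* and *Matn4* were 2.46 (2.26 to 2.67) and 2.10 (1.93 to 2.28). All were lower than in the fibrocartilage-like cells, where *Col2a1* was at 2271 CPM and *Acan* at 208 CPM.

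These transcripts were not spread evenly over the cells. The UMIs of 6 cartilage matrix genes, *Col2a1*, *Col9a1*, *Col9a2*, *Col9a3*, *Matn4* and *Acan*, were summed in each cell thinned to 3000 UMIs, and a border of 5 UMIs was set after the data were seen. It was reached by 353 of 1341 proliferating cells (26.3%, 24.0 to 28.8), by 371 of 2595 tendon-like cells (14.3%, 13.0 to 15.7), by 526 of 641 fibrocartilage-like cells (82.1%, 78.9 to 85.0) and by 0.740% of pluripotent-like cells. No UMI of the 6 genes was found in 28.4% of the proliferating cells. The border cuts a range and not a type, with 84 proliferating cells at 4 UMIs and 63 at 5.

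Other genes differed between the proliferating cells on either side of this border. The cells at or above it had a median of 6186 UMIs against 7814.5 UMIs below it, and 87.8% against 84.8% were called G2M. *Sox9* was at 305 CPM at or above the border and 105 CPM below it, *Pax1* at 80.1 and 19.4 CPM, and *Wwp2*, the host gene of a cartilage microRNA, at 382 and 69.1 CPM. *Dcn*, the proteoglycan decorin of tendon, was at 903 and 1730 CPM, *Igfbp5* at 358 and 1117 CPM, and *Acta2* at 28.4 and 206 CPM. *Scx* was at 2404 and 2781 CPM, a ratio of 0.864 (0.839 to 0.890), and thus remained high on both sides. *Cdkn2a* was at 7.20 and 45.2 CPM and *Cdkn2b* at 9.74 and 59.5 CPM, as these genes were also lower in the fibrocartilage-like cells (9.92 and 4.81 CPM) than in the tendon-like cells.

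The tendon, sclerotome and TGFβ lists held 69 genes with at least 100 UMIs that did not make the split. Of these, 18 were at least 2-fold higher in tendon-like than in fibrocartilage-like cells, and all 18 were lower in the proliferating cells at or above the border, with intervals below 1. The 12 genes at least 2-fold lower in tendon-like than in fibrocartilage-like cells were all higher there, with intervals above 1. The other 39 genes lay between. Some of them also had intervals below 1, such as *Fbn2* at 0.714 and *Ogn* at 0.686, or above 1, such as *Foxc2* at 1.39. The genes of the split themselves differ between these clusters, with *Col2a1* at a tendon-like over fibrocartilage-like ratio of 0.0961. The agreement is therefore partly given by construction. The same split of the tendon-like cells gave 13 of 18 lower and 12 of 12 higher. Among the genes that differed, *Postn* was lower in the proliferating cells at or above the border, with a ratio of 0.739 (0.712 to 0.766), and had a ratio of 1.08 (1.05 to 1.11) in the tendon-like cells split in the same way.

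**Figure D5:**
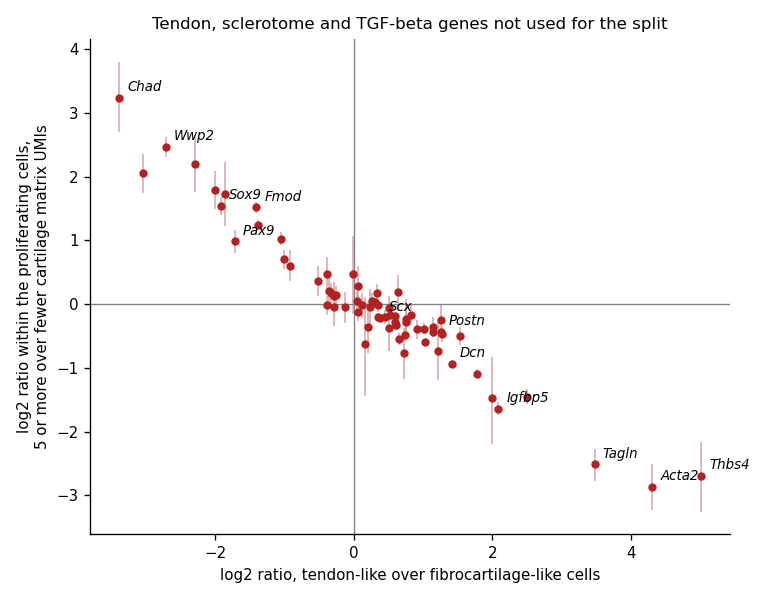
Log2 ratio of the level in proliferating cells with 5 or more over those with fewer cartilage matrix UMIs (y axis, bars are 95% intervals for counting error) against the log2 ratio of tendon-like over fibrocartilage-like cells (x axis), 1 point per gene not used for the split, for genes with UMIs in all 4 groups. All genes at or beyond 2-fold on the x axis lie on the opposite side of 0 on the y axis, such as *Sox9* at 305 against 105 CPM and *Acta2* at 28.4 against 206 CPM.

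In the E14.5 tail, 186 cells carried the same cluster code and are set against the tail cells of code 1. The tail was 1 library of another origin, prepared from tissue, so that culture and tissue cannot be told apart from library, and only the values are given. *Hist1h1b* was at 5203 CPM against 54.2 CPM in the tail, a ratio of 96.0 (88.2 to 105), and *Top2a* at 1348 CPM against 20.2 CPM. *Mxd3* and *Mxd4* went opposite ways here also, at 146 against 4.44 CPM and 58.7 against 175 CPM. *Ccnd1* and *Ccnd2* had ratios of 0.726 (0.665 to 0.793) and 0.590 (0.557 to 0.625), and *Scx* 1.13 (1.10 to 1.16). *Cdkn1a* was at 8.78 CPM in the proliferating tail cells, from 38 UMIs, where the proliferating culture cells had 695 CPM. *Cdkn2a* had 1 UMI in either tail group, so that its difference between the clusters of the culture could not be compared with the tail.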

How the data were processed

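The members and gene lists were chosen with earlier results of these data known. The authors deposited whole UMI counts per gene and cell, made with Cell Ranger (10x 3′ v3 kit, reads that mapped to several places left out) and filtered by mitochondrial share and by depth, together with a cluster code per cell made with Seurat 3.0. The genome build of these counts was not given in the sources used here. Counts were summed per code and divided by the total. Named genes were those of 29 lists and, outside them, the 15 genes with the highest and the 15 with the lowest ratio, given 100 UMIs in both groups together and 50 CPM in the higher. Intervals were Poisson for levels, conditional binomial for ratios and Clopper-Pearson for shares. With 1 library per condition no test was made. Phases and doublets (Scrublet, expected rate 6%) were called with Scanpy 1.11.5 on Python 3.11.15, NumPy 2.4.6 and SciPy 1.17.1, and figures drawn with Matplotlib 3.10.9. Thinning used seed 1 and left out 1157 culture cells. Alternatives varied fold, filter, totals, depth, doublets, comparison group and border. The sums and ratios were tested on simulated counts with counting error only, which cannot show how the intervals hold where cells vary more. Some listed genes are not reported here.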

Additional observations from a re-analysis of the deposited data

How the results depend on the processing

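At 1.5-fold 569 genes were higher and 178 lower than in the tendon-like cells, at 3-fold 205 and 0, and without the filter on detection 2513 and 3553. With a UMI required in at least 25% of cells 1 gene was lower, so that the count of 15 lower genes rests on genes found in few cells. Against all other culture cells 536 genes were lower, the *Scx* ratio was 2.31, and the tendon matrix median turned from -0.22 to 0.86 and the sclerotome and cartilage median was 0.79, since that group holds cells without tendon genes. The tendon matrix median was -0.29 both as a mean of CPM over cells and at 3000 UMIs, and the sclerotome and cartilage median 0.60 at 3000 UMIs. *Scx* and *Top2a* were found together in 79.1% of the proliferating cells at 2000 UMIs, 95.7% at 5000 and 96.9% without thinning. By alternatives chosen after seeing the data, 40.9% reached a border of 3 cartilage UMIs and 16.8% one of 8. When the bins were made from scores at 3000 UMIs, the histone level of the first bin was 2.85 times that of the last, in place of 3.31, and the tendon matrix ratio of last to first was 0.970. Under the other alternatives the count of higher genes stayed within 1.5 times the main one, from 234 (detection in 25% of cells) to 363, with 260 at 3000 UMIs and 279 against all other culture cells, the count of lower genes, apart from the values above, was 12 to 16, and the remaining values moved less than their counting interval or the spread of their list. Of the values of single genes 62 stayed within their counting interval and 34 moved further, none with a change of direction. Those that moved by over 1.5 times did so against all other culture cells, where the ratio was 3.0 in place of 9.89 for *Top2a*, 4.25 in place of 7.16 for *Mki67*, 2.52 in place of 6.90 for *Cenpf*, 4.54 in place of 13.9 for *Hist1h1b*, 2.0 in place of 5.54 for *Ccnb1* and 2.35 in place of 5.57 for *Plk1*. There *Cdkn2b* at 0.745, *Acta2* at 0.765 and *Mxd4* at 0.65 were no longer 2-fold lower, and *Col2a1* at 1.77 was no longer 2-fold higher. As a mean of CPM over cells *Acta2*, at 0.510, was also no longer 2-fold lower. No paired analysis was possible because each condition was 1 library.

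Depth limits what single cells show. Transcripts found in few cells, such as *Cdc6* or *Cdkn2a*, cannot be called absent from a cell without a UMI, and intervals do not cover the spread between cultures, since 1 was sequenced.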
